A study of Homo sapiens with 54 samples.

Results

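SUM1315 is a BRCA1-mutant triple-negative breast cancer line, and cisplatin (CDDP) is a platinum drug whose adducts crosslink DNA. The comparison described here is the step from 2 to 4 µM CDDP in parental SUM1315 cells without olaparib. Its members are the 3 libraries titled with 4 µM and the 3 titled with 2 µM CDDP, 6 of the 54 samples in the series. The 3 untreated parental libraries served as the baseline for both doses. A pair of steps that share no library with these was set beside it, each 3 against 3 libraries. One was 2 to 4 µM CDDP in parental cells that also received 8 µM olaparib, a PARP inhibitor. The other was 2 to 4 µM CDDP in OlaR cells, an olaparib-resistant derivative of the same line kept in 25 µM olaparib. All cells carried the BRCA1 mutation of the line and a mutant p53, and treatment lasted overnight. Each group comes from 1 cell line, and nothing in the labels says that the 3 libraries of a group came from separate cultures. The p-values therefore measure the spread between libraries within groups, which may be technical. That spread was estimated jointly from the 27 SUM1315 libraries of 9 conditions.

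Platinum adducts block both DNA replication and RNA synthesis, and cells answer them through checkpoint kinases, repair pathways and the transcription factor NF-κB. NF-κB dimers are held in the cytoplasm by IκB proteins and, once released, switch on cytokines, chemokines and inhibitors of apoptosis such as BIRC3. The deposited values are read counts per gene that the authors adjusted to 1 library size within each condition, here called adjusted read counts. From them the whole reads were recovered. The 9 parental libraries without olaparib held between 5420890 and 7540920 reads, the 2 µM libraries between 6793101 and 7540920 and the 4 µM libraries between 5420890 and 6202365. Across 11839 genes, the correlation of log2 values between libraries was 0.970 to 0.983 within a dose and 0.959 to 0.974 between doses. The line's markers VIM (10752 to 13073 adjusted read counts over the 9 libraries) and CD44 (5232 to 7760) were high, CDH1 had at most 1 read, and of the basal keratins KRT5 had at most 4 while KRT17 stood at 520 to 1613. The luminal markers were not all absent, with KRT18 at 335 to 598, GATA3 at 52.8 to 128 and KRT8 at 17.7 to 154. Of the immune, endothelial and stromal markers, PECAM1 stood at 118 to 194 and the other 7 had at most 14 reads in any library. The summed level of these 8 was 182 to 201 at 2 µM and 172 to 199 at 4 µM.

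One library of the 2 µM group stood apart and bears on the counts below. Replicate 3 differed from replicates 1 and 2 in both the untreated and the 2 µM group, and these deviations had a Pearson correlation of 0.297 across 7737 genes, given as a description of 6 libraries. ACTG1, which encodes cytoplasmic γ-actin, shows the pattern and was chosen after its values were seen. It had 17342, 24985 and 9149 adjusted read counts in the 2 µM libraries, 18118, 22434 and 9222 in the untreated libraries, and 6920, 6885 and 6905 at 4 µM. In both groups replicate 3 was close to the 4 µM libraries and the other 2 were far above them. Counts are therefore also given without single libraries, and with replicate 3 alone.

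**Figure D1:**
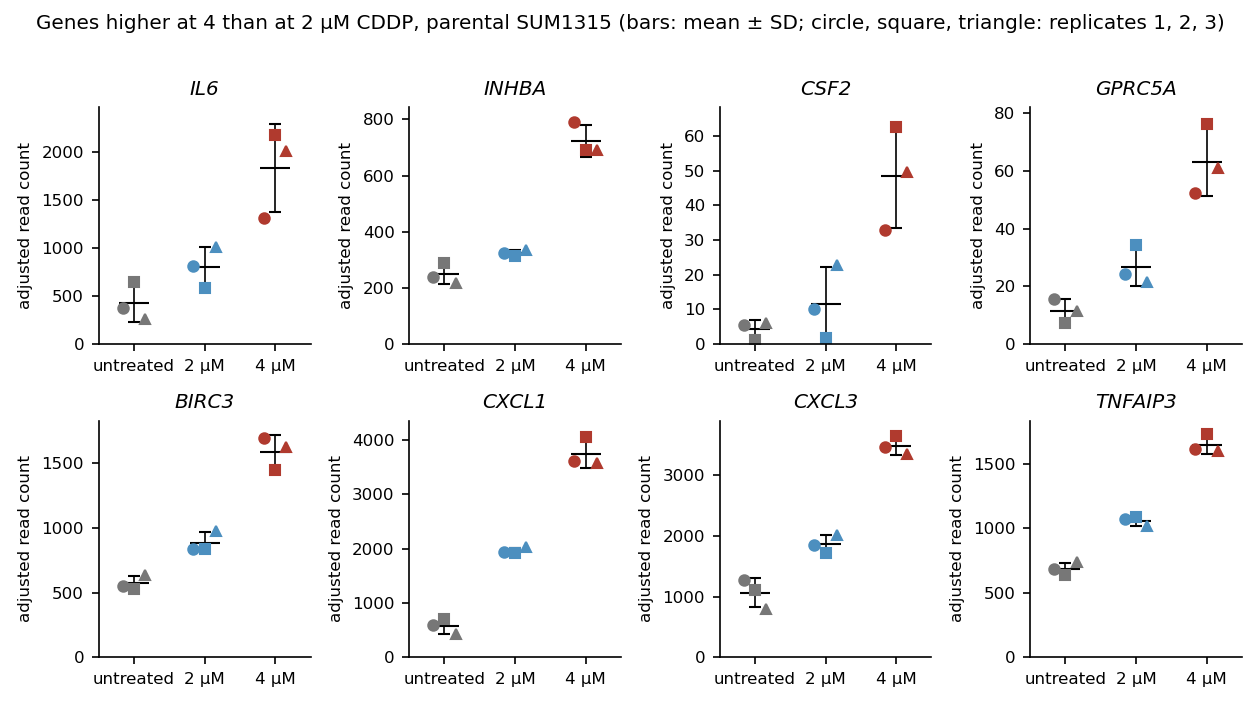
Adjusted read counts of 8 genes in each parental library, by CDDP dose (linear axes from 0, each point 1 library, bars the mean ± SD of 3). In all 8 genes the 3 libraries at 4 µM lay above the 3 at 2 µM; INHBA had 315 to 335 at 2 µM and 690 to 790 at 4 µM.

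Between 2 and 4 µM, far more genes fell than rose. A gene was called when its adjusted p (limma with an intensity trend, Benjamini-Hochberg) was at most 0.05 and its change at least 2-fold. Of 13133 genes tested, 34 were called higher (0.259%) and 162 lower (1.23%) at 4 µM, with a median log2 change over all genes of -0.03. With no limit on the fold, 447 genes were higher (3.40%) and 928 lower (7.07%). The 4 µM libraries all lay above the 2 µM libraries in 12.2% of genes and all below in 16.8%. For comparison, 2 µM against untreated called 711 genes higher (5.41%) and 444 lower (3.38%), and 4 µM against untreated called 951 higher (7.24%) and 1071 lower (8.16%). The counts of the step rested on single libraries. Without replicate 2 of 2 µM they were 13 higher and 92 lower, without replicate 3 of 2 µM they were 83 and 242, and without replicate 3 of 4 µM the genes higher fell to 18. With replicate 3 as the only 2 µM and the only untreated library they were 6 and 29. In each of these fits more genes were lower than higher.

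Genes that change only with the higher dose are not the same as genes called only in the 4 µM comparison. Against untreated cells, 417 genes were called higher at 4 µM and not at 2 µM, but in the direct comparison of the doses 18 of these were called, and 85 with no limit on the fold. Of the 736 genes called lower at 4 µM and not at 2 µM, 92 were called in the direct comparison and 273 with no limit on the fold. Of the same 417 and 736 genes, 244 and 273 had already passed an adjusted p of 0.05 the same way at 2 µM. A gene was therefore counted as changed only with the higher dose when it was called in the step, called in the same direction against untreated at 4 µM, and had an adjusted p above 0.05 at 2 µM, a threshold that 33.9% of all genes passed. By this rule 13 genes were higher and 81 lower only with the higher dose. In 6 of the 13 and 32 of the 81, the 95% interval of the change at 2 µM lay within 2-fold of no change; for the others a change of that size at 2 µM was not excluded by the data. Of the remaining step genes, 8 rose and 51 fell in a graded manner, already changed the same way at 2 µM. A further 4 higher and 15 lower genes had moved the opposite way at 2 µM. The last 9 and 15 met none of these definitions. The 3 comparisons share libraries, so these are counts and not tests of one another. The calls depended on single libraries for the genes that rose. With each of the 9 libraries left out in turn, 3 of the 34 genes higher and 54 of the 162 genes lower were called every time, and 0 of the 13 and 19 of the 81 remained in the class of the higher dose only.

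Of the 34 genes that rose, INHBA, GPRC5A and CTGF were called with each of the 9 libraries left out. In a fit of the 9 libraries alone, GPRC5A had a limma adjusted p of 0.057. INHBA, which encodes the βA subunit of activin A, had 239, 288 and 217 adjusted read counts untreated, 326, 315 and 335 at 2 µM, and 790, 691 and 690 at 4 µM. The 3 doses did not overlap, the step was a log2 change of 1.15 ± 0.12 (SE, limma adjusted p = 1.8e-07), and the call held with every library left out. IL6, the cytokine interleukin-6, had 379, 649 and 258 untreated, 814, 582 and 1009 at 2 µM, and 1312, 2180 and 2011 at 4 µM. Its log2 change in the step was 1.20 ± 0.26 (limma adjusted p = 0.0028), on top of 0.97 between untreated and 2 µM (limma adjusted p = 0.0047). Without replicate 2 of 2 µM the change was 0.98, just under the 2-fold limit. CSF2, which encodes the growth factor GM-CSF, had 5.44, 1.08 and 6.18 untreated, 9.96, 1.72 and 22.9 at 2 µM, and 33.0, 62.6 and 49.5 at 4 µM. It belonged to the genes of the higher dose only, with a log2 change of 2.42 ± 0.63 in the step (limma adjusted p = 0.010, and 0.079 in a fit of the 9 libraries alone). These are few reads, 12, 3 and 26 at 2 µM and 32, 68 and 56 at 4 µM, and the adjusted p was 0.15 without replicate 2 of 2 µM and 0.053 without replicate 2 of 4 µM. TNF was lower still, with 5, 0 and 1 reads at 2 µM and 11, 16 and 19 at 4 µM, a fitted log2 change of 2.83 (limma adjusted p = 0.017) that was lost without replicate 2 of 2 µM (adjusted p = 0.13) and without replicate 2 or 3 of 4 µM (adjusted p = 0.053 and 0.065).

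The 13 genes that rose with the higher dose only had means between 7.2 for C1orf116 and 301 for AKAP8L at 4 µM, both named after their values were seen. AKAP8L, which encodes a nuclear protein, had 152 untreated, 156 at 2 µM and 301 at 4 µM in the mean. GBP3, an interferon-inducible guanylate-binding GTPase, had 32.2, 28.9 and 22.5 at 2 µM and 81.1, 59.2 and 63.5 at 4 µM, with 20.8 to 32 untreated. RAET1E, a ligand of the activating receptor NKG2D, had 9.41, 21.8 and 29.3 at 2 µM and 41.1, 48.5 and 47.8 at 4 µM. DCAF15, a substrate receptor of a CUL4 ubiquitin ligase, had 25.0, 24.5 and 35.9 at 2 µM and 61.7, 51.8 and 84.7 at 4 µM. In GBP3, RAET1E and DCAF15 the doses did not overlap, with log2 changes between 1.18 and 1.27 (limma adjusted p between 0.0062 and 0.022). With each of the 9 libraries left out in turn, GBP3 was called in 5 fits, AKAP8L and RAET1E in 6 and DCAF15 in 8. PSMC3IP, a cofactor of meiotic and homologous recombination, completes the named genes of this class with a log2 change of 1.25 ± 0.40 (limma adjusted p = 0.041), a call lost with any of 6 libraries left out. GPRC5A, a retinoic acid-induced orphan receptor, rose at both steps, from 7.31 to 15.5 untreated through 21.6 to 34.3 at 2 µM to 52.5 to 76.2 at 4 µM, and its call held with every library left out. CTGF, a YAP target that codes for a matrix protein, had instead fallen at 2 µM (18.2 against 36.9 in the mean) and was back at 43.2 at 4 µM, a step of 1.23 ± 0.30 (limma adjusted p = 0.0064). TBKBP1, an adaptor of the kinase TBK1, took the same course, from 33.0 through 14.8 to 33.2. Its step was 0.74 without replicate 2 of 2 µM (limma adjusted p = 0.24). The death receptor gene TNFRSF10A (13.2 at 2 µM, 31.4 at 4 µM), SORCS1 (17.4 and 46.6) and ARRDC1-AS1 (19.2 and 48.7) also rose in the step, but at 4 µM none of them was called against untreated. Their calls in the step held in 5, 6 and 6 of the 9 fits that left out 1 library. ARRDC1-AS1 is an antisense RNA, and whether its reads were counted by strand is not given in the sources used here.

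The NF-κB targets were the list whose members rose most often in the step. Of 31 tested, 16 were higher and 2 lower at an adjusted p of at most 0.05, beside 3.40% and 7.07% of all genes. The median log2 change was 0.46, beside -0.03 over all genes. TNF, CSF2, IL6 and TRAF1 passed 2-fold, which is 4 of 31 members beside 0.259% of all genes. BIRC3, an inhibitor of apoptosis, had 554, 525 and 639 untreated, 838, 837 and 978 at 2 µM, and 1691, 1445 and 1627 at 4 µM, a step of 0.84 ± 0.13 (limma adjusted p = 3.1e-05). TRAF1, a signalling adaptor of TNF receptors, had 56.1, 69.7 and 50.3 at 2 µM and 137, 112 and 108 at 4 µM (log2 change 1.01 ± 0.34, limma adjusted p = 0.048). Leaving out any library of either dose took its adjusted p above 0.05. CCL20, a chemokine, had 89.5 to 92.3 at 2 µM and 120 to 158 at 4 µM, which did not overlap but did not pass the test (log2 change 0.61 ± 0.28, limma adjusted p = 0.17).

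Among the most abundant members of the list, CXCL8 and PTGS2 rose, SOD2 did not pass the test and NFKBIA fell. The chemokine gene CXCL8 went from 5167 to 8866 in the mean (limma adjusted p = 0.00049) and the cyclooxygenase gene PTGS2 from 4631 to 6832 (limma adjusted p = 9.7e-05). SOD2, a mitochondrial superoxide dismutase, had 6940 and 6346 (limma adjusted p = 0.61). NFKBIA, which encodes IκBα, fell from 4998 to 3402 (limma adjusted p = 0.00026). A few further members were chosen after their values were seen. CXCL1 had 604, 702 and 423 untreated, 1944, 1923 and 2027 at 2 µM, and 3602, 4045 and 3582 at 4 µM. CXCL3 (1722 to 2017 at 2 µM, 3345 to 3645 at 4 µM) and TNFAIP3, which encodes the NF-κB inhibitor A20 (1016 to 1090 and 1598 to 1728), kept the doses apart as well. In these members, untreated, 2 µM and 4 µM formed 3 levels that did not overlap, so their rise was graded and not particular to the higher dose.

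Promoter sequences are given for 4 members whose levels rose in the step, because NF-κB has a binding site that can be looked for there. They are the 250 bases before the RefSeq start on the coding strand (GRCh38.p14), with letters in capitals where they match the NF-κB consensus decamer on either strand. The stretches are chr7:22726950-22727199 for IL6, chr5:132073539-132073788 for CSF2, chr11:102317234-102317483 for BIRC3 and chr4:73869143-73869392 for CXCL1, all on the plus strand.
IL6: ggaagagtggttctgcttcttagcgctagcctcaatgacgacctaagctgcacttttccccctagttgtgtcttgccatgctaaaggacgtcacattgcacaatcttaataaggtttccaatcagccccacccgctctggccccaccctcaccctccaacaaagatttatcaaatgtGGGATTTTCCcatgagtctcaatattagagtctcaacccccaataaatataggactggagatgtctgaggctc
CSF2: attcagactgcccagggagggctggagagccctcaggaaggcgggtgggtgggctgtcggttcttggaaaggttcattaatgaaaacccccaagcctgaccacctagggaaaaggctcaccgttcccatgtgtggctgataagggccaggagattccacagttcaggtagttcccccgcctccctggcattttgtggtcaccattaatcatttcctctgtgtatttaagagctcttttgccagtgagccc
BIRC3: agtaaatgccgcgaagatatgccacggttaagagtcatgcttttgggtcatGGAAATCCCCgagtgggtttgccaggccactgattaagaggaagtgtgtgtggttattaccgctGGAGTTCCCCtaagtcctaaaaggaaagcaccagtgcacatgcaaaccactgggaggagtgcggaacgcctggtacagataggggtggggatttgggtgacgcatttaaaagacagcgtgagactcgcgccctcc
CXCL1: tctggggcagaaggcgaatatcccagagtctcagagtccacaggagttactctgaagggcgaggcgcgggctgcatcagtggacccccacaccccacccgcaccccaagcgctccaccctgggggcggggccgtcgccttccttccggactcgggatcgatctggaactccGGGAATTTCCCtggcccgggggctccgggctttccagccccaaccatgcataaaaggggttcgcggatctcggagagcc
The matches begin 73 bases before the start in IL6, 199 and 135 bases before it in BIRC3, and 79 and 78 bases before it in CXCL1, where both overlap. The CSF2 stretch held 0 matches. Of the 31 list members tested, 27 had a promoter in the table and 13 of these (48.1%) held a match, beside 6.28% of the 27305 genes with a promoter. Since the list consists of genes known as NF-κB targets, this describes the list and not the dose step. The heptamer TGANTCA of AP-1 was in 2 of the 27 and in 8.06% of all.

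**Figure D2:**
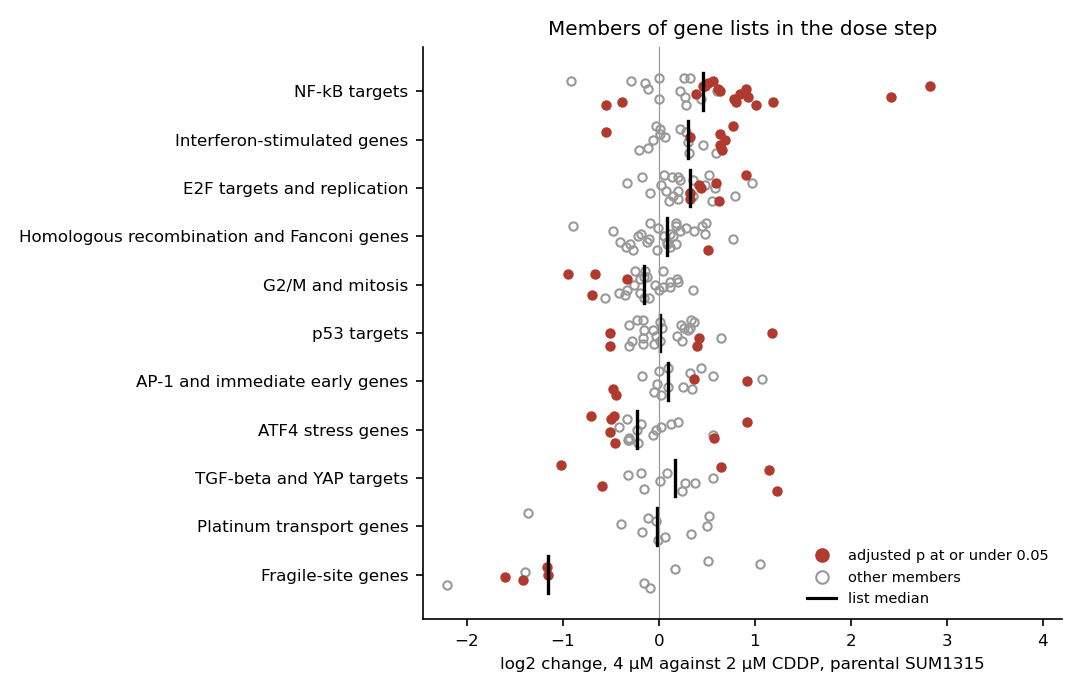
Log2 change from 2 to 4 µM CDDP of each tested member of 11 gene lists, filled where the adjusted p is at most 0.05, with the list median as a black bar. The median of NF-kB targets lies at 0.46 and that of fragile-site genes at -1.16, while G2/M genes lie at -0.15.

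Other lists moved mainly between untreated and 2 µM. Of 29 E2F targets and replication genes, 18 were called higher at 2 µM and 22 at 4 µM against untreated. Over all genes these shares were 5.41% and 7.24%. In the step itself 0 passed 2-fold, 7 were higher with no limit on the fold and 0 lower. Over all genes 3.40% were higher and 7.07% lower. PCNA, the replication clamp, had 894, 868 and 1081 at 2 µM and 1424, 1476 and 1388 at 4 µM (log2 change 0.60 ± 0.11, limma adjusted p = 0.0003), whereas RRM2, a subunit of ribonucleotide reductase, had 1431 and 1631 in the mean (limma adjusted p = 0.22). MCM2 and MCM7, subunits of the replicative helicase, had log2 changes of 0.15 and 0.21 (limma adjusted p = 0.50 and 0.11). Of 26 mitotic genes, 13 were called higher at 2 µM and 9 at 4 µM, beside 5.41% and 7.24% of all genes. In the step 0 were higher and 4 lower with no limit on the fold, beside 3.40% and 7.07% of all genes, with a median log2 change of -0.15. TOP2A, topoisomerase IIα, had 9034, 8588 and 12119 untreated, 16320, 17449 and 15630 at 2 µM, and 10912, 9962 and 10407 at 4 µM, a fall of 0.66 on the log2 scale (limma adjusted p = 5.7e-05) that brought it back to the untreated range. UBE2C, a ubiquitin-conjugating enzyme of mitotic exit, fell by 0.69 (limma adjusted p = 0.0039), and CENPF and PTTG1 had changes of -0.19 and -0.12 (limma adjusted p = 0.30 and 0.44). CCNB1, cyclin B1, and PLK1, a mitotic kinase, were the remaining genes lower in the step, by 0.33 and 0.94.

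Interferon-stimulated genes rose mostly at 2 µM, with 10 of 21 called higher there, beside 5.41% of all genes. In the step 6 were higher and 1 lower with no limit on the fold. Step counts in this paragraph have no limit on the fold unless 2-fold is named. They stand beside 3.40% of all genes higher and 7.07% lower. The ubiquitin-like ISG15, chosen after its values were seen, had 568, 584 and 687 at 2 µM and 1090, 1062 and 978 at 4 µM, from 235 to 246 untreated. DDX58, which encodes the RNA sensor RIG-I, rose by 0.33 (limma adjusted p = 0.018), BST2, a membrane protein that tethers virus particles, had a change of -0.20 (limma adjusted p = 0.19), and the chemokine gene CXCL10 fell by 0.55 (limma adjusted p = 0.015). Of 28 p53 targets, 3 were higher and 2 lower in the step. TNFRSF10A alone passed 2-fold, beside 0.259% of all genes called higher. CDKN1A, the cyclin-dependent kinase inhibitor p21, had 1093, 1225 and 1011 at 2 µM and 1500, 1368 and 1504 at 4 µM (log2 change 0.40, limma adjusted p = 0.0016), and MDM2 had 777 and 799 in the mean (limma adjusted p = 0.87). Of 21 stress genes of the transcription factor ATF4, 2 were higher and 5 lower. DDIT4, an mTOR inhibitor, fell by 0.70 (limma adjusted p = 0.00025), and the transcription factor CEBPB and the amino acid transporter SLC7A5 fell by 0.47 and 0.45 (limma adjusted p = 0.016 and 0.017). The TGF-β and YAP list of 14 held INHBA and CTGF among its rises and ID1, an inhibitor of basic helix-loop-helix factors, among its falls. ID1 had 2433, 2690 and 1741 at 2 µM and 1051, 1205 and 1073 at 4 µM, with 1879 to 3193 untreated, so that it fell with the higher dose only (log2 change -1.02 ± 0.16, limma adjusted p = 7.1e-05). Leaving out any of 4 libraries took it just under 2-fold. Among 30 homologous recombination and Fanconi genes 1 was higher and 0 lower, among 17 nucleotide excision repair genes 2 and 2, and among 10 platinum transport genes and 10 translesion synthesis genes 0 passed the test in either direction. The counts that follow are also with no limit on the fold and stand beside 3.40% of all genes higher and 7.07% lower. Of 17 AP-1 and immediate early genes 2 were higher and 2 lower, of 11 heat shock genes 2 and 0, of 13 NRF2 targets 1 and 1, and of 16 hypoxia genes 1 and 3. Of the remaining lists 0 members were higher, while 2 of 13 MAPK feedback genes, 2 of 17 cholesterol synthesis genes, 1 of 15 BCL2 family genes, 1 of 10 clustered histone genes and 1 of 3 metallothioneins were lower.

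**Figure D3:**
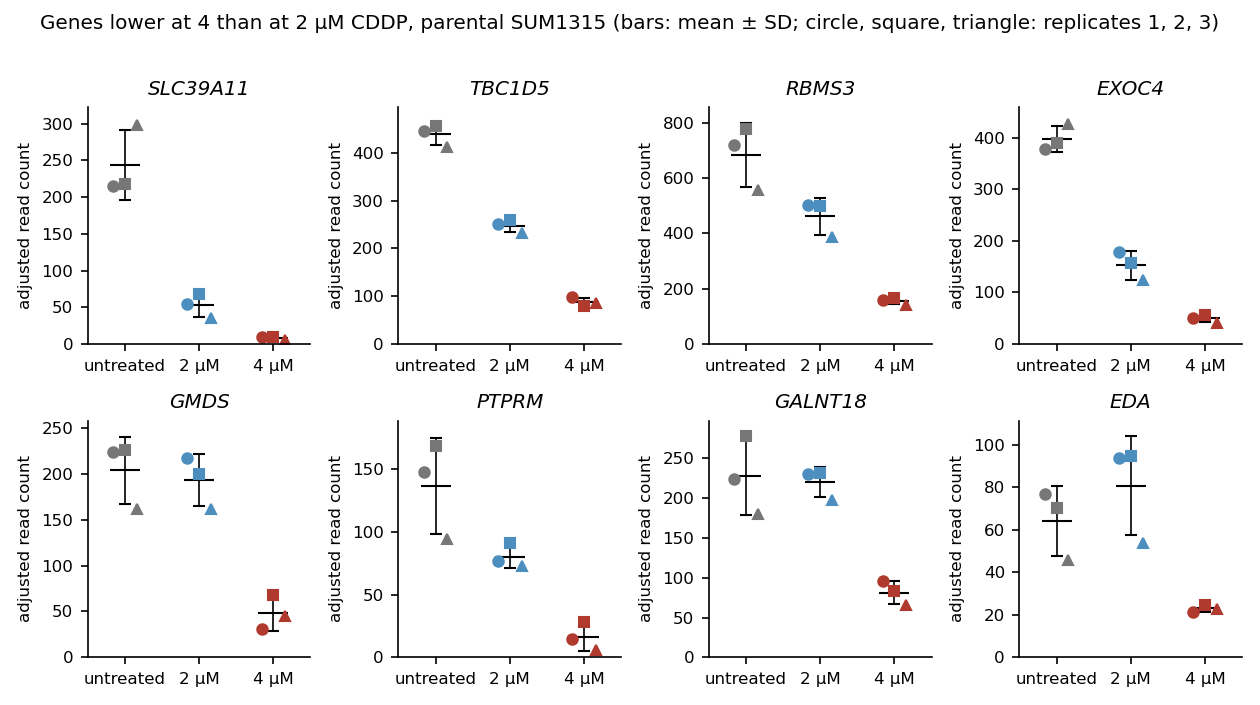
Adjusted read counts of 8 long genes in each parental library, by CDDP dose (linear axes from 0, each point 1 library, bars the mean ± SD of 3). The upper genes fell at both steps, while GMDS, GALNT18 and EDA in the lower row had overlapping untreated and 2 µM libraries and fell at 4 µM.

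Most of the genes that fell were long. With gene spans from the GENCODE annotation, the 159 genes lower in the step with a span had a median of 222 kb, and the 33 higher genes 14.9 kb, beside 32.2 kb over the genes tested. The share of genes called lower rose with span, from 0.519% of 2697 genes under 10 kb, 0.571% of 3504 between 10 and 30 kb and 0.555% of 4147 between 30 and 100 kb, to 1.54% of 2072 between 100 and 300 kb and 14.2% of 492 over 300 kb. Of the 492 genes over 300 kb, 2 were called higher (0.407%, beside 0.259% of all genes), among them SORCS1 with 591 kb. Between 100 and 300 kb 0 were called higher. The median log2 change was 0.02 under 10 kb, -0.12 between 100 and 300 kb and -0.49 over 300 kb, where 82.7% of genes were below 0. At 2 µM against untreated, the share called lower stood apart over 300 kb only, with 2.03 to 3.52% in the shorter bins. The median log2 change at 2 µM was 0.09 under 10 kb, -0.10 between 100 and 300 kb and -0.44 over 300 kb. Over 300 kb, 17.5% of genes were called lower at 2 µM and 44.7% at 4 µM against untreated, beside 3.41% and 5.97% under 10 kb. In each library, genes over 300 kb held 1.81 to 1.84% of all adjusted reads untreated, 1.46 to 1.54% at 2 µM and 1.27 to 1.28% at 4 µM. The libraries of the 3 groups did not overlap (exact two-sided permutation p = 0.1 for 4 against 2 µM, the smallest that 3 against 3 libraries can give). Genes over 300 kb had lower values than the others, with a median of 63.9 adjusted read counts in the 6 libraries beside 109 under 10 kb, and the part of level in this gradient was not tested. In bulk RNA, a smaller number of cells with a transcript and less of it per cell cannot be told apart.

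**Figure D4:**
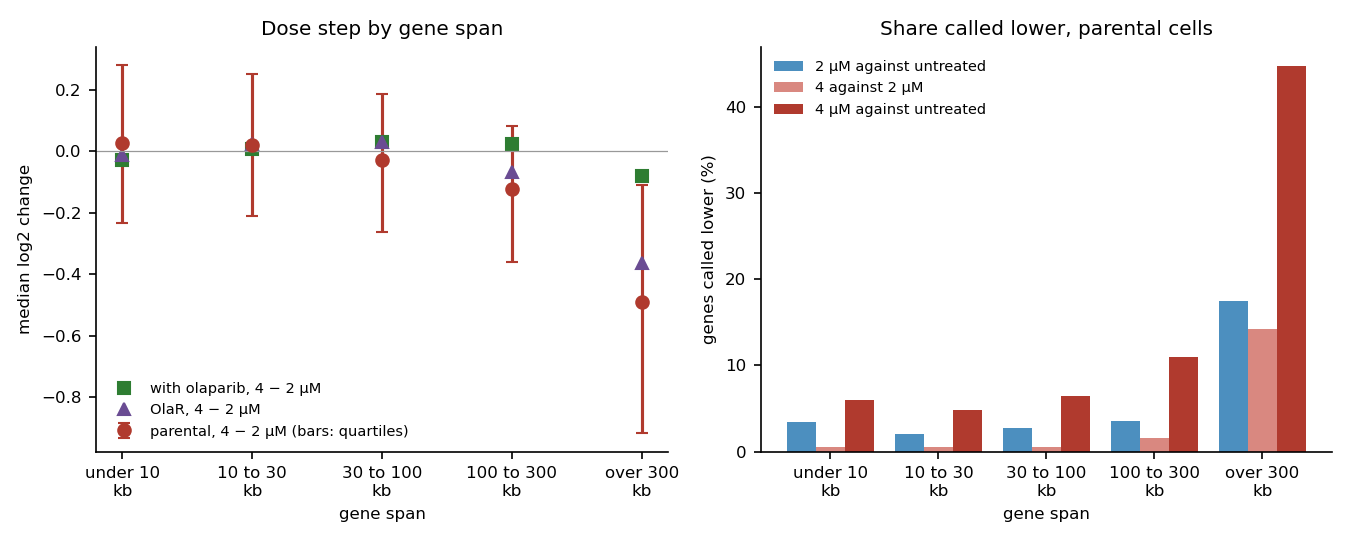
Left, the median log2 change from 2 to 4 µM CDDP by gene span in parental, olaparib-treated and OlaR cells (bars, quartiles over genes in parental cells). Right, the percent of genes called lower in parental cells in 3 comparisons. Over 300 kb the parental median is -0.49 and the olaparib median -0.08.

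Several long genes fell at both doses. SLC39A11, a zinc transporter of 447 kb on chromosome 17 (chr17:72645949-73092712), had 215, 217 and 299 untreated, 54.7, 67.6 and 35.5 at 2 µM, and 9.23, 9.18 and 6.07 at 4 µM. Its log2 change was -2.22 at 2 µM and a further -2.52 ± 0.33 in the step (limma adjusted p = 3.6e-06), the largest fall among the genes eligible for naming. TBC1D5, a Rab GTPase-activating protein of 1288 kb, had 447, 457 and 413 untreated, 251, 259 and 233 at 2 µM, and 97.5, 80.3 and 85.7 at 4 µM (step -1.49 ± 0.12, limma adjusted p = 3.1e-10). RBMS3, an RNA-binding protein gene of 1436 kb, had 503, 499 and 386 at 2 µM and 160, 167 and 142 at 4 µM, and was chosen after its values were seen. ANKS1B, SORCS2, TLN2, RPS6KA2 and BCAS3, which span 454 to 1258 kb, were also among the largest falls, with step changes from -1.76 to -2.51. All of these were lower at 2 µM than untreated as well, and their calls in the step held with every library left out.

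Other long genes fell with the higher dose only. GMDS, the GDP-mannose dehydratase of fucose synthesis (622 kb, chr6:1623806-2245605), had 223, 225 and 162 untreated, 217, 200 and 161 at 2 µM, and 31.0, 68.3 and 45.0 at 4 µM. Its change at 2 µM was -0.07 (95% interval -0.55 to 0.40) and its step -2.04 ± 0.23 (limma adjusted p = 4.9e-07). GALNT18, a glycosyltransferase of mucin-type glycosylation (351 kb, chr11:11270877-11622005), had 225, 278 and 180 untreated, 230, 232 and 198 at 2 µM, and 95.4, 83.2 and 65.8 at 4 µM (step -1.43 ± 0.16, limma adjusted p = 3.8e-07). Both stayed in this class with each of the 9 libraries left out, and both were called with replicate 3 as the only 2 µM library (-1.80 and -1.29). PTPRM, a receptor tyrosine phosphatase of 840 kb, had 77.1, 91.2 and 73.2 at 2 µM and 14.4, 27.9 and 5.74 at 4 µM, a step of -2.49 ± 0.35 (limma adjusted p = 1.5e-05). At 2 µM its 95% interval reached from -1.44 to just under 0, so a fall at the lower dose as well was not excluded. TMTC2, an endoplasmic reticulum protein gene of 448 kb, and RNF180, a ubiquitin ligase gene of 207 kb, fell by 1.92 and 2.02, and the RNF180 call was lost without replicate 3 of 4 µM (adjusted p = 0.24) or replicate 2 of 2 µM (adjusted p = 0.095). EDA, the ectodysplasin ligand (423 kb), and SMYD3, a lysine methyltransferase (758 kb), were chosen after their values were seen. EDA had 93.8, 94.6 and 53.8 at 2 µM and 21.6, 24.7 and 23.0 at 4 µM, and SMYD3 had 113, 113 and 94.1 and 25.8, 30 and 50.2. As a class, the 79 genes lower with the higher dose only that have a span had a median of 201 kb, and the 51 graded ones 523 kb.

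Genes that lie over common fragile sites, regions prone to breaks under replication stress, are among the longest. Of 18 in the list, 11 passed the filter on low values. In the step 4 were called lower and 0 higher, beside 1.23% of all genes lower and 14.2% of genes over 300 kb. At 2 µM 7 were already called lower, beside 3.38% of all genes and 17.5% of genes over 300 kb. The part of span in these counts was not tested. LPP, an adhesion protein gene of 737 kb, had 935, 934 and 812 untreated, 441, 485 and 394 at 2 µM, and 168, 204 and 221 at 4 µM. EXOC4, an exocyst subunit gene of 814 kb, had 379, 390 and 427, then 179, 156 and 123, then 51.4, 56.0 and 41.2. IMMP2L, a mitochondrial peptidase subunit, went from 138 through 23.5 to 8.64 in the mean, and its call was lost without replicate 1 of either dose. DPYD, the enzyme that degrades fluorouracil, was the only called member that fell with the higher dose only, at 131 to 149 in the 2 µM and 58.6 to 68.7 in the 4 µM libraries (145 to 178 untreated). FHIT and WWOX, chosen after their values were seen, were already low at 2 µM. FHIT had 25.0 untreated, 1.64 at 2 µM and 2.49 at 4 µM, and WWOX 68.0, 23.8 and 27.1 (limma adjusted p of the step 0.96 and 0.77).

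Shorter genes that fell moved together with the library that stood apart. In the 57 genes under 100 kb that were lower in the step, replicate 3 of 2 µM was below replicates 1 and 2 by a median of 0.46 on the log2 scale, and replicate 3 of the untreated group by 0.37. In the 102 genes over 100 kb replicate 3 of 2 µM was below by 0.19, and in the untreated group the median deviation was 0.05. With replicate 3 as the only 2 µM and untreated library, the median step was -0.98 in the shorter genes, where 0 of 57 were called, and -1.43 in the longer ones, where 26 of 102 were called. With every library left out in turn, 7 of the 57 and 47 of the 102 were called each time. The part of this library in the falls of shorter genes was not tested further. GADD45G, a stress-inducible gene of 1.54 kb, was a short gene without that pattern, with 43.0, 39.2 and 37.0 at 2 µM and 10.3, 3.44 and 16.3 at 4 µM (33.0, 31.2 and 57.7 untreated), and its class held with every library left out. TSC22D3, a glucocorticoid-induced leucine zipper gene named after its values were seen, had 1483, 1663 and 934 at 2 µM and 563, 553 and 553 at 4 µM. CD9, a tetraspanin also named after its values were seen, had 961, 1247 and 433 at 2 µM and 259, 252 and 229 at 4 µM, with 67.8 to 384 untreated. It had risen at 2 µM, and so had ANGPT1, a gene of 249 kb for the ligand angiopoietin 1, which went from 28.2 to 65.6 in the mean and fell to 13.4 at 4 µM.

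**Figure D5:**
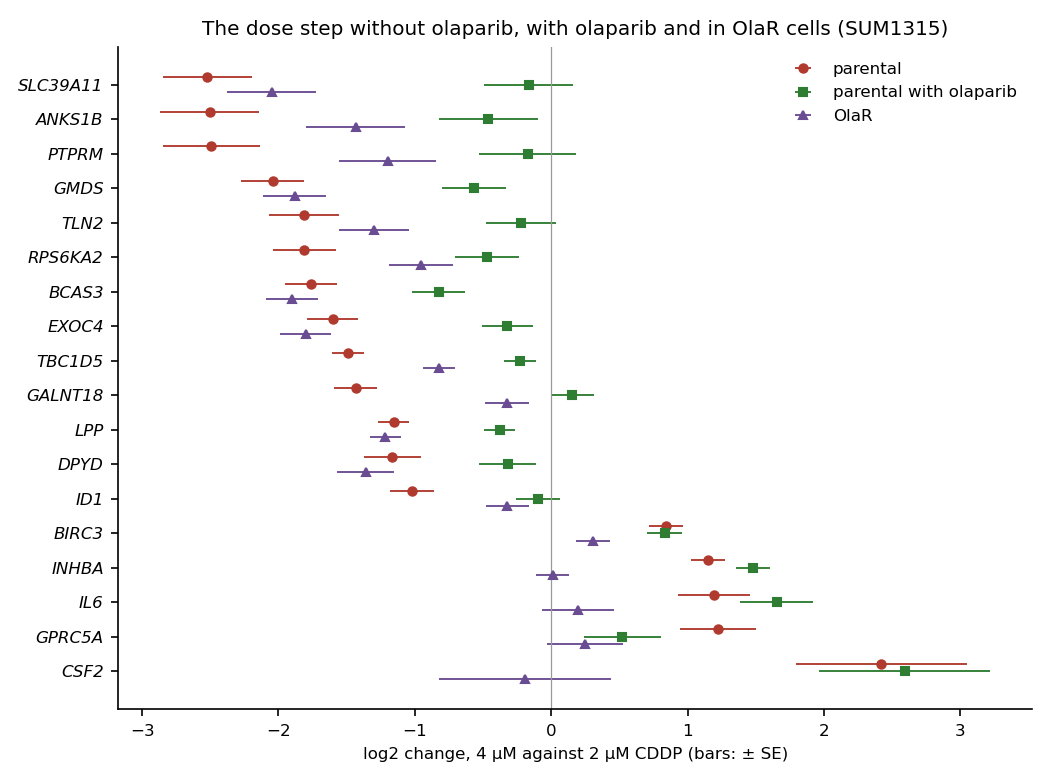
Log2 change from 2 to 4 µM CDDP (± SE, limma) of 18 genes in parental cells, parental cells with olaparib and OlaR cells. In the 12 long genes, SLC39A11 to DPYD, the olaparib value lies right of the parental one, from -0.83 in BCAS3 to 0.16 in GALNT18. These 12 were named for a parental fall or a difference from the olaparib step, and that choice leans towards this order. IL6, INHBA and CSF2 lie right of 0 without and with olaparib and between -0.19 and 0.20 in OlaR cells.

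The same step in the presence of olaparib called 20 genes higher (0.152%) and 2 lower (0.0152%). In OlaR cells it called 10 higher (0.0761%) and 113 lower (0.860%). Of the 162 genes that fell in parental cells, 127 had a negative change in OlaR cells and 125 with olaparib (78.4% and 77.2%, beside 50.8% and 48.4% of all genes). Of these 162, 32 were called lower in OlaR cells and 1 with olaparib, and their median change was -0.52 and -0.28, beside -1.39 in parental cells, by which they were chosen. The median level of these genes went from 72.5 untreated to 51.8 and 19.8 at the 2 doses, from 82.0 with olaparib alone to 61.6 and 50.5, and from 50.8 in OlaR cells to 34.0 and 21.9. Genes over 300 kb held 1.524 to 1.597% and 1.502 to 1.563% of reads at the 2 doses with olaparib, which overlapped, and 1.30 to 1.38% and 1.13 to 1.14% in OlaR cells, which did not (exact two-sided permutation p = 0.6 and 0.1).

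The difference between the steps was tested as an interaction across all genes. It passed for 310 genes between parental cells without and with olaparib (2.36%) and for 219 between parental and OlaR cells (1.67%). Of the 162 genes lower in the parental step, 40 and 13 were among these. Because the 162 were chosen for their parental step, this overlap leans towards a larger parental change. The interactions also rested on single libraries, with 70 and 21 genes left without replicate 2 of 2 µM and 914 and 821 without replicate 3. Without any one of the other 4 parental dose libraries they were 93 to 161 and 76 to 78. SLC39A11 had step changes of -2.52, -0.17 with olaparib and -2.05 in OlaR cells, and the first and second differed (difference -2.36, limma adjusted p = 0.0088). GMDS had -2.04, -0.57 and -1.88, and EXOC4 -1.60, -0.32 and -1.80, and in both the difference to olaparib passed the test (limma adjusted p = 0.018 and 0.013) while that to OlaR cells did not (0.86 and 0.77). GALNT18 differed from both, with -1.43, 0.16 and -0.32 (limma adjusted p = 0.00021 and 0.011), and so did TBC1D5.

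Of the 34 genes higher in the parental step, 22 were above 0 with olaparib and 17 in OlaR cells, beside 51.4% and 49.0% of all genes, and 3 and 0 of them were called there. Their median change was 0.11 with olaparib and 0.00 in OlaR cells, beside 1.19 in parental cells, by which they were chosen. The median level of these genes went from 26.0 untreated to 19.8 and 47.4 at the 2 doses. With olaparib alone it was 18.7, then 29.9 and 33.2, and in OlaR cells 46.1, then 45 and 38.8. TBKBP1 had -0.74 and GBP3 -0.12 with olaparib. INHBA changed by 1.15 in parental cells, by 1.48 with olaparib (limma adjusted p = 8.7e-10) and by 0.01 in OlaR cells (0.98), and its difference to OlaR cells passed the test (1.14, limma adjusted p = 0.0010). IL6 changed by 1.20, 1.65 (limma adjusted p = 0.00038) and 0.20 (0.79), and CSF2 by 2.42, 2.59 (0.035) and -0.19 (0.93), and for these 2 the difference to OlaR cells did not pass (adjusted p = 0.16 and 0.12). BIRC3 changed by 0.84, 0.83 (0.00019) and 0.30 (0.20), with an adjusted p of 0.11 for the difference to OlaR cells. The levels in OlaR cells differed from the parental ones before the step. In the mean, OlaR cells at 2 µM had 1665 for INHBA, 1161 for IL6, 42.1 for CSF2 and 458 for BIRC3. Parental cells at 4 µM had 724, 1835, 48.4 and 1588. Without CDDP, OlaR cells already had 1342 for INHBA. The list of NF-κB targets had a median change of 0.46 in parental cells, 0.56 with olaparib and 0.18 in OlaR cells.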

How the data were processed

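RNA from SUM1315 cells was sequenced by the submitters. For the libraries the paper names the QuantSeq 3' mRNA kit of Lexogen, a method directed at the 3' end of transcripts. Their processing notes name CASAVA 1.8.2, FastQC, STAR, HTSeq and edgeR and the build hg38. The deposited table holds read counts that the authors adjusted with edgeR to a common library size, a signal that is not whole. Inverting this adjustment per condition gave whole reads that returned 100% of the 82410 deposited values of each condition within a relative difference of 1e-06. Libraries were sequenced in batches that the labels do not assign, so batch could not be fitted.

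The 13133 of 27470 genes that reached 10 adjusted reads in 3 or more of the 27 SUM1315 libraries were tested with limma 3.58.1 (R 4.3.3) with an intensity trend on log2(value + 1) over 9 conditions, which understates changes of low genes, with Benjamini-Hochberg adjustment over all genes tested. Calls needed an adjusted p of at most 0.05 and a 2-fold change. edgeR 4.0.16 (41 genes higher and 163 lower in the step) and DESeq2 1.42.0 on the recovered reads were alternatives. The study used edgeR; limma was used here because the deposited values are not counts. Named genes were the 12 largest rises and the 12 largest falls among called genes with a mean of at least 20 and no overlap, called members of the gene lists, up to 4 abundant members of each list described, BIRC3, TRAF1 and CCL20, and the 3 smallest p-values of each interaction. The members, lists and span classes were chosen with earlier results of these data known. Symbols were matched to GENCODE v44 and RefSeq (GRCh38). Columns with the authors' own fold changes and p-values were not used, nor were the MDA-MB-468 libraries. Counting intervals cover counting error only.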

Additional observations from a re-analysis of the deposited data

Results flagged for a closer look

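Results whose dose step differed between conditions, by the interaction test of limma with Benjamini-Hochberg adjustment over all genes, are listed with the parental change minus the other on the log2 scale. Across all genes the step differed for 310 genes between parental cells without and with olaparib, and for 219 between parental and OlaR cells. The genes named below were chosen for a call in the parental step or a small p of the interaction. That choice leans towards a difference between the steps.

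Against the olaparib step the parental change was lower in SLC39A11 (-2.36), PTPRM (-2.32), ANKS1B (-2.05), TLN2 (-1.59), GALNT18 (-1.59), GMDS (-1.48), RPS6KA2 (-1.34), EXOC4 (-1.28) and TBC1D5 (-1.26), genes that fell in parental cells. It was also lower in CLDN1 (-0.93), a tight junction gene that fell by 0.47 in parental cells and rose by 0.46 with olaparib, in ID1 (-0.92) and in LPP (-0.78). TBKBP1 was the named riser with a larger parental change (2.08). It had 18, 7 and 28 reads at 2 µM. Without replicate 2 of 2 µM its parental step was 0.74 (limma adjusted p = 0.24).

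Against the OlaR step the parental change was lower in PLK1 (-1.51), GALNT18 (-1.11) and TBC1D5 (-0.67). PLK1 fell by 0.94 in parental cells and rose by 0.56 in OlaR cells. Its 2 µM libraries had 462, 504 and 280, and with replicate 3 as the only 2 µM library the parental change was -0.42 (limma adjusted p = 0.36). The parental change was higher in the noncoding RNA SNAR-E (2.29) and in INHBA (1.14). SNAR-E belongs to a family of near-identical copies, so that its reads are uncertain, and its parental change rested on replicates 1 and 2 of 2 µM. The SLC39A11, PTPRM, GMDS, GALNT18, TBC1D5 and INHBA calls in the parental step itself remained with replicate 3 as the only 2 µM library.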

How the results depend on the processing

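The direction of the parental step, more genes lower than higher, was the same in every alternative run. Between edgeR's quasi-likelihood test with TMM or DESeq2 size factors, DESeq2's Wald test, no filter, a pseudocount of 5 and median centring, genes higher numbered 27 to 49 and genes lower 139 to 167, and the lower share of calls 76.6 to 83.7%. Of the genes lower, 149 were shared with edgeR (TMM) and 144 with DESeq2, and of the 94 genes of the higher dose only, 69 and 64. Fitting the 9 libraries alone gave 11 higher and 105 lower, and 5 and 50 with the higher dose only. The 6 libraries alone gave 15 and 96. No limit on the fold gave 447 and 928 in the step, 160 and 385 with the higher dose only, 106 with olaparib and 342 in OlaR cells. A log2 limit of 2 gave 4 and 37, 2 and 21, 6 with olaparib, 30 in OlaR cells and 14 for each interaction. The OlaR step had 60 genes by edgeR with TMM and 63 with DESeq2 size factors beside 123. The interactions with olaparib and OlaR gave 674 and 391 genes by DESeq2 and 133 and 89 with no filter.

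Leaving out 1 library in turn gave 13 to 83 genes higher and 92 to 242 lower in the step, and 3 to 25 and 50 to 99 with the higher dose only. It gave 12 to 39 for the olaparib step, 84 to 141 for the OlaR step, 70 to 914 for the interaction with olaparib and 21 to 821 for that with OlaR. The lowest and highest parental values came without replicates 2 and 3 of 2 µM. Both alternatives that follow were added after seeing the data. Replicate 3 as the only untreated and 2 µM library, assumed to vary like the other groups, gave 6 and 29 in the step, 3 and 16 with the higher dose only and 13 and 5 for the interactions, and the SNAR-E change turned to -0.014. Replicates 1 and 2 of these groups gave 88 and 251, 28 higher with the higher dose only, and 1385 and 1160. The cause of these changes was not tested, apart from fewer libraries in the fit. Nothing in the labels ties same-numbered libraries together, and their deviations from the group means, over all genes tested, correlated between -0.02 and 0.16 in the parental groups without olaparib and between -0.098 and 0.16 over all 9 conditions, so the numbers were not taken as pairs. The 0.297 given for replicate 3 of the untreated and 2 µM groups is over abundant genes alone. With the replicate number as a block, 34 genes were higher and 161 lower, 13 and 78 with the higher dose only, 20 with olaparib, 119 in OlaR cells and 354 and 239 for the interactions, and no count moved by over 1.5 times.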

Other observations

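At equal depth, fewer genes had any read as the dose rose. When the reads of the 9 libraries were scaled in expectation to the 5420890 reads of the smallest, 17005 to 17485 genes had a read untreated, 15758 to 15942 at 2 µM and 15081 to 15390 at 4 µM, with no overlap between the groups. The step genes were mostly protein-coding, 26 of the 34 higher and 148 of the 162 lower, and the small RNAs SNORA32, SNORA80E and SCARNA22 rose while SNORA12 fell. These 4 were named after their values were seen, and such short RNAs within introns can share reads with their host genes.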
